A study of Mus musculus with 4 samples.

Results

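The RNA sensors of the cytosol and the endosome, and the adaptors that carry their signals, were followed as 10 genes in 4T1 cells, a line derived from a mammary tumour of a BALB/c mouse. They were chosen by function and matched by symbol, and all 10 were found among the 53647 genes of the count tables. The uniSTING group was 4T1 cells that received mRNA for uniSTING, a designed protein that imitates active STING, and the Mock group was 4T1 cells that received EGFP mRNA. There were 2 libraries in each group, numbered by the labels as preparations 1 and 2, and the cells of both groups carry the genotype label WT. Both groups were therefore given foreign mRNA, so a response of the sensors to delivered RNA that both share does not appear in the comparison. Cells without any mRNA were not analysed here. The labels name a transfection reagent (TransIT-mRNA) and lipid nanoparticles (SS-OP LNPs) as carriers but do not assign one to any library, and no dose or time is stated. They also do not say that the preparations were separate cultures. A p-value sets the difference between the groups against the spread of libraries within a group, and that spread may be technical.

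RIG-I (gene Ddx58) and MDA5 (Ifih1) are cytosolic helicases that bind double-stranded RNA, RIG-I by its triphosphate end and MDA5 along long duplexes, and pass the signal to MAVS on mitochondria, from which interferon and NF-kB genes are switched on. LGP2 (Dhx58) is a relative of both that lacks the signalling domains and tunes their activity. PKR (Eif2ak2) halts translation and ADAR1 (Adar) edits adenosines in double-stranded RNA and so keeps the cell's own RNA from being sensed, while ZBP1 binds Z-form nucleic acid and can start necroptosis. In the endosome TLR3 signals through TRIF (Ticam1), and most other Toll-like receptors signal through MyD88 (Myd88). Several of these genes are themselves known to be induced by interferon.

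Stretches of promoter sequence are shown because the interferon-stimulated response element (ISRE), the site bound by the interferon-activated factor ISGF3, was searched for as the letters GAAA repeated after any 2 bases, on either strand. The windows were RefSeq promoters of GRCm38.p6, running from 250 bases before to 50 bases after each annotated start, and 8 of the 10 genes had at least 1 window. Dhx58 and Zbp1 had no entry in the table. A match was found for 4 of the 8 genes, and each is given 5′ to 3′ on the strand of the gene, in a stretch of 30 bases with the match in capitals.
Ddx58: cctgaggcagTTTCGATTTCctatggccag
Ifih1: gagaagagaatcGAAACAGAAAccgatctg
Eif2ak2: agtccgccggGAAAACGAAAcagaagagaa
Myd88: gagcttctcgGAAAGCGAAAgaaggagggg
The Ddx58 stretch lies at chr4:40239804-40239833, that of Ifih1 at chr2:62646206-62646235, that of Eif2ak2 at chr17:78882535-78882564 and that of Myd88 at chr9:119340039-119340068, all on the minus strand of GRCm38.p6. In Ddx58 the element reads in the antisense direction, from base 3 to base 12 of the transcribed sequence. In Ifih1 and Eif2ak2 it also lies just after the start, at bases 33 to 42 and 19 to 28, and in Myd88 it lies before the start, at positions -40 to -31. The letters were not found in the windows of Mavs, Tlr3 and Ticam1 or in the 3 windows of Adar. The search took exact matches only, and near matches were not searched for. A window of Adar holds gaaagtgaa just after the start, which is the pattern without its last letter. Over all genes with a window, 3.99% (1079 of 27025) held them in at least 1 window. A match of letters is a description and does not show that a factor binds there.

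Among the 10 genes, 5 rose and 1 fell in uniSTING cells, and 4 did not pass the test. Those that rose were the 3 helicases of the RIG-I family, Ddx58, Ifih1 and Dhx58, together with Zbp1 and Eif2ak2. Adar fell by a small amount, and the adaptor genes Mavs, Ticam1 and Myd88 and the receptor gene Tlr3 did not pass. Of all 12972 tested genes, 24.9% rose, 25.4% fell and 50.2% passed one way or the other, at an adjusted p below 0.05 (edgeR quasi-likelihood test, Benjamini-Hochberg adjustment over all tested genes). The share of the 10 genes that passed in either direction, 60%, lay near that background. Their median log2 fold change was 0.30, against 0.006 over all tested genes. Zbp1 and Dhx58 were the 2 that rose at least 2-fold, a size that 2.00% of all tested genes reached upward. None of the 10 fell at least 2-fold, as did 1.19% of all tested genes. In the comparison of uniSTING with Mock libraries, the values of the groups did not overlap for 8 of the 10 genes, which was also the case for 75.1% of all tested genes. Both uniSTING libraries lay above both Mock libraries for 6 of the 10 genes, against 37.8% of all tested genes, and below them for 2, against 37.3%.

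**Figure D1:**
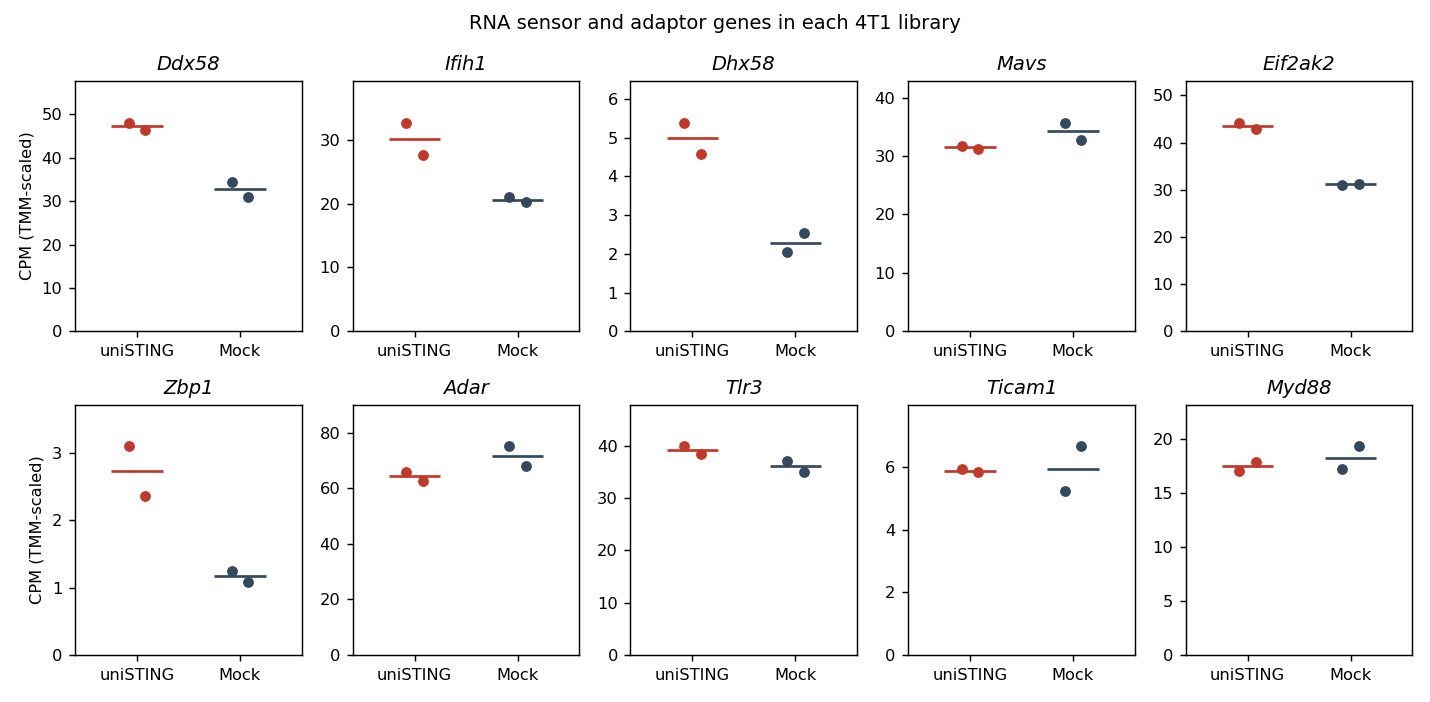
CPM, counts scaled to library size (vertical axis from 0), of the 10 genes in each library, with uniSTING on the left and Mock on the right, 1 point per library and a line at the mean of each pair. Ddx58, Ifih1, Dhx58, Eif2ak2 and Zbp1 sit higher in both uniSTING libraries than in both Mock libraries, while the points of Ticam1 and Myd88 overlap.

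Ddx58, which encodes RIG-I (ENSMUSG00000040296, chromosome 4, 40203773 to 40239828 in GRCm39), had 902 and 1155 counts in the uniSTING libraries, against 608 and 683 in the Mock libraries. Scaled to library size as CPM, these were 48.1 and 46.4 CPM in uniSTING and 34.5 and 30.9 CPM in Mock. Both uniSTING libraries lay above both Mock libraries, and the means were 47.3 ± 1.23 and 32.7 ± 2.54 CPM in uniSTING and Mock (SD, n = 2 libraries each). The gene rose 1.45-fold (95% interval 1.30 to 1.61, adjusted p = 9.17e-05, edgeR), and 8.68% of all tested genes had a larger log2 fold change.

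Ifih1, which encodes MDA5 (ENSMUSG00000026896, chromosome 2, 62426142 to 62476599), moved by much the same amount. Its counts were 613 and 690 in uniSTING and 370 and 447 in Mock, or 32.7 and 27.7 CPM in uniSTING against 21 and 20.2 CPM in Mock. The uniSTING libraries were further apart than the Mock libraries, but the groups did not overlap. Ifih1 rose 1.46-fold (95% interval 1.28 to 1.67, adjusted p = 3.68e-04, edgeR), with a log2 fold change of 0.55 (SE 0.09) beside 0.53 (SE 0.07) for Ddx58.

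Dhx58, which encodes LGP2 (ENSMUSG00000017830, chromosome 11, 100585710 to 100595097), was scarce and rose more. It had 101 and 114 counts in uniSTING and 36 and 56 in Mock, which gave 5.39 and 4.58 CPM in uniSTING and 2.04 and 2.53 CPM in Mock. Both uniSTING values were well above both Mock values. The rise was 2.15-fold (95% interval 1.59 to 2.91, adjusted p = 7.65e-04, edgeR). Within preparation 1 the log2 fold change was 1.35 and within preparation 2 it was 0.83, so that the 2-fold size was reached in preparation 1 and not in preparation 2. Without uniSTING replicate 1 or Mock replicate 1 it was also just under 2-fold, at 0.99 and 0.96 on the log2 scale, and passed the test both times. Among the 1671 tested genes whose mean level was within a factor of 2 of that of Dhx58, 3.11% had a larger log2 fold change.

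Mavs, the adaptor on which RIG-I and MDA5 converge (ENSMUSG00000037523, chromosome 2, 131075983 to 131089945), did not follow the receptors. It had 31.8 and 31.2 CPM in uniSTING and 35.7 and 32.7 CPM in Mock. Both uniSTING libraries were below both Mock libraries, but the gap was small beside the spread of the Mock pair. The log2 fold change was -0.12 (95% interval -0.27 to 0.04, adjusted p = 0.186, edgeR), an interval that leaves room for a fall to 0.827 of the Mock level and for a rise to 1.03 times it. Mavs did not pass under any of the 12 alternative settings, and its log2 fold change was below 0 in all 12.

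**Figure D2:**
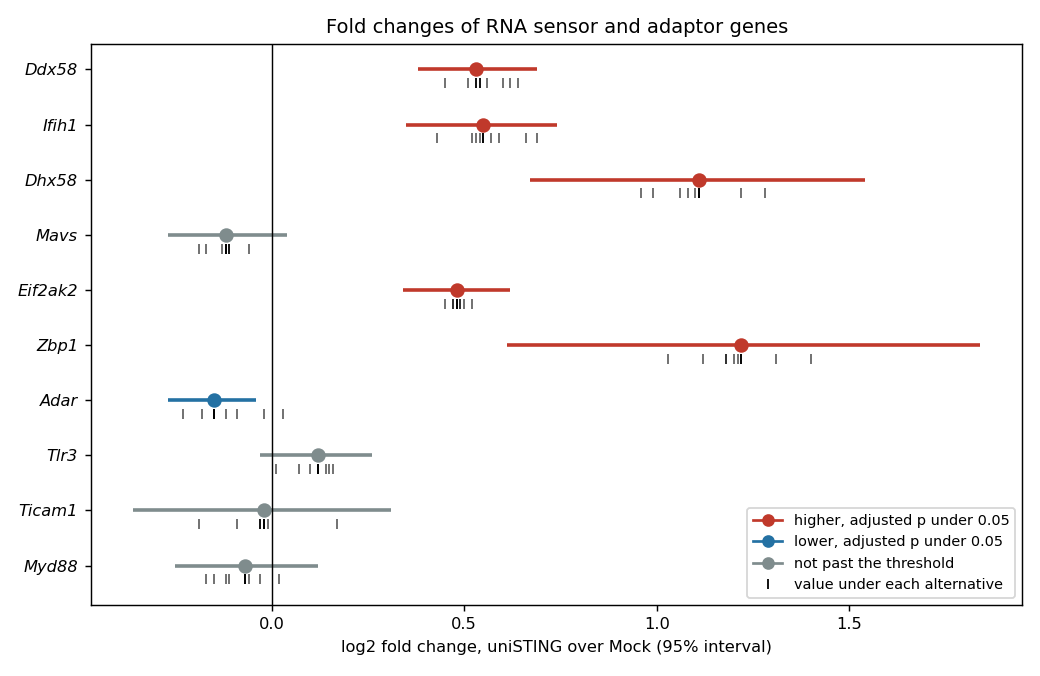
Log2 fold changes of the 10 genes, uniSTING over Mock, with 95% intervals (horizontal axis), coloured by the call, and short ticks under each gene for the value under each of the 12 alternative settings. The intervals of Ddx58, Ifih1, Dhx58, Eif2ak2 and Zbp1 lie above 0 with all their ticks, while the ticks of Adar reach from -0.23 to 0.03.

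Eif2ak2, which encodes the translation-blocking kinase PKR (ENSMUSG00000024079, chromosome 17, 79159993 to 79190002), had the tightest values of the genes that rose. They were 44.2 and 42.9 CPM in uniSTING and 31 and 31.3 CPM in Mock, from 828 and 1069 counts in uniSTING and 547 and 691 in Mock. The gap between the groups was many times the difference within each pair. Eif2ak2 rose 1.40-fold (95% interval 1.27 to 1.54, adjusted p = 8.09e-05, edgeR), close in size to Ddx58 and Ifih1.

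Adar, which encodes the editing enzyme ADAR1 (ENSMUSG00000027951, chromosome 3, 89622329 to 89660753), was the most abundant of the 10 genes by CPM. It had 65.9 and 62.8 CPM in uniSTING and 75.1 and 68 CPM in Mock. The groups did not overlap, yet the higher uniSTING library and the lower Mock library were close to each other. Adar fell by 0.15 on the log2 scale (SE 0.05, adjusted p = 0.0328, edgeR), and this call did not hold in 5 of the 12 alternatives. It was lost without uniSTING replicate 2 (log2 fold change -0.12, adjusted p = 0.127), without Mock replicate 1 (-0.09, adjusted p = 0.189), with DESeq2 (-0.15, adjusted p = 0.115) and once the trend of counts with gene length was removed (-0.02, adjusted p = 0.833). With the trend of GC content removed as well, the value was 0.03 (adjusted p = 0.66). Adar has a constitutive promoter and an interferon-inducible one that makes the longer protein p150, and counts over all exons of the gene do not separate their transcripts.

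Zbp1, which encodes the Z-nucleic acid sensor (ENSMUSG00000027514, chromosome 2, 173048405 to 173060716), was the scarcest of the 10 genes and had the largest rise among them. It had 58 and 59 counts in uniSTING and 22 and 24 in Mock, or 3.10 and 2.37 CPM in uniSTING against 1.25 and 1.09 CPM in Mock. Both uniSTING libraries were clearly above both Mock libraries at this low level. The rise was 2.33-fold (95% interval 1.52 to 3.57, adjusted p = 0.00381, edgeR), and the log2 fold change ran from 1.03 to 1.40 over the 12 alternatives, past the threshold in each. Markers of leukocytes and macrophages were low, and 1 of them also rose, by less than Zbp1. Cd68, which macrophages express highly, had 10.7 and 10.4 CPM in uniSTING and 8.34 and 6.43 CPM in Mock. Cd68 rose 1.44-fold (log2 fold change 0.53, SE 0.13, adjusted p = 0.0065, edgeR), by 0.36 on the log2 scale within preparation 1 and 0.69 within preparation 2. Csf1r, the receptor of a macrophage growth factor, had 23 and 28 counts in uniSTING and 21 and 22 in Mock and did not pass. The leukocyte marker Ptprc had 19 and 0 counts in uniSTING preparations 1 and 2 and 8 and 0 in Mock, and the macrophage marker Lyz2 had 15.5 and 0 CPM in uniSTING and 8.79 and 0 CPM in Mock. Within preparation 2, where Ptprc and Lyz2 had no count but Cd68 and Csf1r did, Zbp1 had 59 counts in uniSTING against 24 in Mock, a log2 fold change of 1.06 beside 1.23 in preparation 1. The part of such cells in the Zbp1 values was not tested. Among the 1566 tested genes of like level, 4.21% had a larger log2 fold change.

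Tlr3, the endosomal receptor for double-stranded RNA (ENSMUSG00000031639, chromosome 8, 45848702 to 45864117), had 39.9 and 38.4 CPM in uniSTING and 37.2 and 35 CPM in Mock. Both uniSTING libraries were above both Mock libraries, by little more on average than the Mock libraries differed from each other. The log2 fold change of 0.12 did not pass (95% interval -0.03 to 0.26, adjusted p = 0.161, edgeR), so that a rise of up to 1.20-fold is within its interval.

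Ticam1, which encodes TRIF, the adaptor of TLR3 (ENSMUSG00000047123, chromosome 17, 56576319 to 56583786), had 5.92 and 5.83 CPM in uniSTING and 5.22 and 6.65 CPM in Mock. Both uniSTING values fell between the Mock values. Its log2 fold change of -0.02 had a wide interval (-0.36 to 0.31, adjusted p = 0.915, edgeR) at 92 to 147 counts per library, and it was 0.17 without Mock replicate 2 (adjusted p = 0.506).

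Myd88, the adaptor of most other Toll-like receptors and of the interleukin-1 receptor family (ENSMUSG00000032508, chromosome 9, 119165000 to 119170477), had 17 and 17.9 CPM in uniSTING and 17.2 and 19.3 CPM in Mock. The groups overlapped. The log2 fold change was -0.07 (95% interval -0.25 to 0.12, adjusted p = 0.532, edgeR) and 0.02 without Mock replicate 2 (adjusted p = 0.891). Its window holds an ISRE core like those of Ddx58, Ifih1 and Eif2ak2, which rose, while Myd88 did not pass. The other genes with a window, Mavs, Adar, Tlr3 and Ticam1, had no match and did not rise. Dhx58 and Zbp1, which rose, had no window to search. A link between the letters and the calls was not tested.

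Fold changes in these libraries fell with exon length, which bears on genes as long as Ddx58, Ifih1 and Adar. Among tested genes with a mean of at least 4 CPM, the tenth with the shortest exons had a median of 0.26 on the log2 scale, and the tenth with the longest -0.27. For Ddx58, with 7.05 kb of exon, the 2321 genes within a factor of 1.25 of its length had a median of -0.10, and 1.68% of them had a larger log2 fold change than its 0.53. For Ifih1, with 8.16 kb, the median of like-length genes was -0.12 and 1.07% lay above it. Both genes thus rose against the direction of the trend, and with the trend removed their log2 fold changes were 0.64 and 0.69 (adjusted p = 4.84e-05 and 1.40e-04, edgeR). Eif2ak2 was 0.52 with the trend removed, Dhx58 1.06 and Zbp1 1.18, all past the threshold. Adar, with 8.12 kb, lay near the middle of genes of its length, of which 53.9% had a larger log2 fold change and whose median was -0.12.

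**Figure D3:**
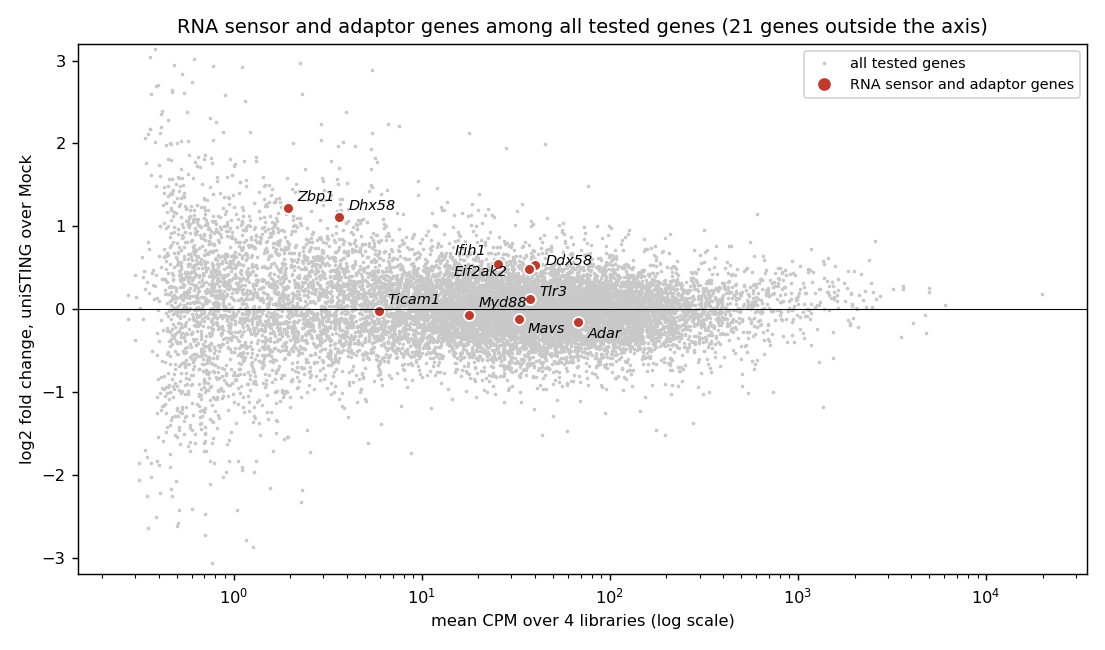
Log2 fold change, uniSTING over Mock (vertical axis), against the mean CPM over the 4 libraries (log scale) for the 12972 tested genes in grey, of which 21 lie outside the plotted range, and the 10 RNA sensor and adaptor genes in red. Zbp1 and Dhx58 lie at low mean CPM above 1 on the log2 scale, Ddx58, Ifih1 and Eif2ak2 lie near 0.5, and the other genes lie near 0.

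Levels of different genes were compared as CPM per kilobase of exon, a scale that allows for gene length. In Mock cells Mavs was the highest of the 10 genes at 10.2 ± 0.65 CPM per kilobase (SD, n = 2 libraries), above 62.9% of all tested genes, and Adar followed at 8.82 ± 0.619. Myd88 and Tlr3 came next at 7.09 ± 0.585 and 6.93 ± 0.304, and their Mock libraries overlapped, so these neighbours did not differ beyond their spread. Eif2ak2 (6.09), Ddx58 (4.64), Ifih1 (2.52) and Ticam1 (1.98) stood below them in Mock without overlap between neighbours. Dhx58 and Zbp1 were the lowest in Mock at 0.699 ± 0.106 and 0.331 ± 0.0325 CPM per kilobase, with 13.9% and 7.64% of tested genes below them.

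The order changed in uniSTING cells mainly through PKR. Eif2ak2 ranked 2 of 10 in both uniSTING libraries, at 8.64 and 8.40 CPM per kilobase, and 5 of 10 in both Mock libraries, at 6.07 and 6.12. Mavs stayed at rank 1 in all 4 libraries and Ifih1, Ticam1, Dhx58 and Zbp1 at ranks 7 to 10. Ddx58, at 6.83 and 6.58 CPM per kilobase in uniSTING, overlapped there with Myd88, at 6.59 and 6.96. Among the 3 helicases, the level of Ddx58 exceeded that of Ifih1 and that of Dhx58 in each of the 4 libraries.

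**Figure D4:**
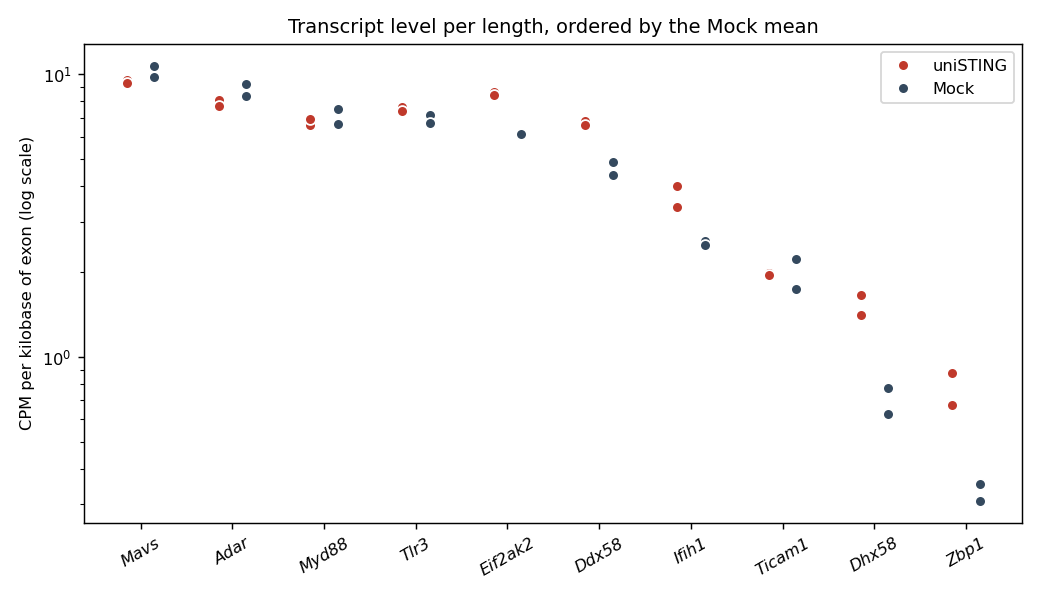
CPM per kilobase of exon (vertical axis, log scale) of the 10 genes in each library, uniSTING left of Mock, ordered by the Mock mean. Levels run from 10.2 CPM per kilobase for Mavs to 0.331 for Zbp1 in Mock, and Eif2ak2 rises above Adar, Myd88 and Tlr3 in uniSTING.

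Some of these genes share exon bases with a neighbour on the other strand, and the counting used no strand. Adar shares 16.8% of its exon bases with Chrnb2, Myd88 11.3% with Acaa1a, Tlr3 7.32% with Gm45542 and Dhx58 4.31% with Dhx58os. Dhx58os and Gm45542 had no count in any library, and Chrnb2 had 17 to 22 counts. Acaa1a was abundant and rose, at 43.1 and 44.2 CPM in uniSTING and 37.6 and 37 CPM in Mock (log2 fold change 0.23, adjusted p = 0.00969, edgeR). Its part in the Myd88 counts was not tested. Ddx58, Ifih1, Mavs, Zbp1, Eif2ak2 and Ticam1 share no exon bases with another gene.

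Genes whose values ran most like those of a sensor were found by the distance between log2 CPM values centred on each gene, over the 4 libraries, among genes within a factor of 2 of its mean level. With 4 libraries in 2 groups, likeness rests mostly on the fold change. Nearest to Ddx58 were Mrps25, Ndufc1 and the receptor gene Tlr4 (distances of 0.033, 0.036 and 0.044 on the log2 scale, of 4216 candidates). Nearest to Ifih1 were Ccne2, Triap1 and Swt1, and nearest to Dhx58 were Tnfsf9, Aqp5 and the interferon-inducible gene Gbp4 (0.168, 0.184 and 0.214). Nearest to Zbp1 were Pgbd1, Cmpk2 and Nts (0.105, 0.142 and 0.144), of which Cmpk2 is known to be interferon-inducible. For Eif2ak2 the nearest were Abracl, Magoh and Cenpi (0.013, 0.022 and 0.025). Among the genes that did not rise, they were Ipmk, Exoc3 and Tnfrsf1a for Mavs, and Phf20, Lnpep and Nsmaf for Adar. For Tlr3 they were Odf2l, Alg2 and Snw1, and for Ticam1 Myo1h, Rnf125 and Them6. Those of Myd88 were Psmb9, Mrps2 and Taf1b.

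The genes around the sensors were described with 6 lists, and each of them held genes that rose and genes that fell. The counts given for each list stand beside 24.9% of all 12972 tested genes that rose and 25.4% that fell. No list was tested against these shares. Fold changes of single list genes come from the main fit, which leaves the length trend in. They were not set beside genes of like length. For RIG-I-like receptor regulators and other RNA helicases, 9 of 31 tested genes rose and 14 fell, the median over the 31 being -0.12 on the log2 scale, and with the length trend removed 8 fell. Ddx60, an interferon-inducible helicase linked to RIG-I signalling, rose by 1.16 (SE 0.09, adjusted p = 2.26e-06, edgeR) to 15.4 and 15.9 CPM in uniSTING, against 6.87 and 7.06 CPM in Mock. The ubiquitin ligase gene Trim25 rose slightly, at 121 and 118 CPM in uniSTING and 104 and 109 CPM in Mock. Rnf135, which encodes the RIG-I ligase Riplet, fell by 0.54 (SE 0.12), at 6.25 and 5.74 CPM in uniSTING and 8.91 and 8.46 CPM in Mock. The abundant helicase genes Dhx9 and Ddx21 fell by 0.47 and 0.58.

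Downstream of MAVS and TRIF, 8 of 22 tested genes rose and 3 fell, with a median of 0.12. Without Mock replicate 1, 5 rose. Irf7, the interferon-inducible transcription factor, rose the most of them, by 2.12 (SE 0.20). The kinase gene Tbk1 rose by 0.15 (SE 0.04, adjusted p = 0.0121, edgeR), with 73 and 73.6 CPM in uniSTING and 64.8 and 67.7 CPM in Mock, and its partner Ikbke did not pass (adjusted p = 0.275, edgeR). Irf3, the factor that TBK1 phosphorylates, did not pass either (log2 fold change 0.04, SE 0.07). Optn, which encodes an adaptor that binds TBK1, rose by 0.68, and the ubiquitin ligase gene Traf3 fell by 0.38.

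In the Toll-like receptor branch 7 of 20 tested genes rose and 3 fell, with a median of 0.05, and 4 rose without Mock replicate 1. Ctsl, which encodes a protease that trims endosomal receptors, rose by 0.43, at 1044 and 1028 CPM in uniSTING and 765 and 775 CPM in Mock. Tlr4, a receptor that uses both TRIF and MyD88, rose by 0.50, at 29.7 and 28.6 CPM in uniSTING and 21.6 and 19.8 CPM in Mock. The endosomal receptors for single-stranded RNA and for DNA were near or below detection beside Tlr3. Tlr7 had 3 and 3 counts in uniSTING and 5 and 5 in Mock, a ratio of 0.546 with a 95% counting interval of 0.163 to 1.66. Tlr8 and Tlr9 had no count in the 4 libraries, a result that allows for 0.0688 CPM in uniSTING and 0.0755 CPM in Mock, where 3 counts over the group are taken as the floor. These intervals and floors cover counting error only. Unc93b1, which carries TLR3 and its relatives to the endosome, was low and did not pass, at 1.44 and 0.321 CPM in uniSTING and 0.794 and 0.272 CPM in Mock. It was higher in both preparation 1 libraries, as were Ptprc and Lyz2, while Csf1r was at similar levels in all 4 libraries.

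Of the partners of ZBP1 in cell death, 3 of 6 tested genes rose and 1 fell, with a median of 0.16. Mlkl, the executioner of necroptosis, rose by 0.38 (SE 0.04), at 108 and 107 CPM in uniSTING and 80.1 and 84.5 CPM in Mock. Ripk3, the kinase through which ZBP1 activates MLKL, had 1 and 0 counts in uniSTING and 1 and 0 in Mock. The kinase gene Ripk1 and the protease gene Casp8 rose by 0.22 and 0.21. Cflar, which encodes an inhibitor of caspase 8, fell by 0.26, a call lost without Mock replicate 1 and with the length trend removed, when none of the list fell.

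The list around PKR, which leaves out Eif2ak2 itself, held the 3 other eIF2 alpha kinases and the targets and regulators of these kinases. Of its 21 tested genes 11 rose and 5 fell, with a median of 0.11, and none of the 3 kinases rose. With DESeq2, and with the length trend removed, 7 rose. The other kinases did not move with Eif2ak2. Eif2ak1 and Eif2ak4 fell by 0.34 and 0.41 (SE 0.07 each), and Eif2ak3 did not pass (log2 fold change 0.19, SE 0.11, adjusted p = 0.175, edgeR). Eif2s1, which encodes the PKR substrate eIF2 alpha, rose by 0.17, and the stress factor genes Atf4, Atf3 and Ddit3 rose by 0.14, 0.77 and 0.40. These values leave the length trend in, under which the tenth of genes with the shortest exons had a median of 0.26. The part of that trend in them was not tested. Of the phosphatase subunits that reverse the phosphorylation, Ppp1r15a rose by 0.40 and Ppp1r15b fell by 0.26.

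For double-stranded RNA editing, processing and decay, 4 of 17 tested genes rose and 8 fell, with a median of -0.14, and with the length trend removed 2 rose and 5 fell. Dicer1, which cuts double-stranded RNA, fell by 0.47 (SE 0.04) and Drosha by 0.37 (SE 0.03). Both values leave the length trend in, under which the tenth of genes with the longest exons had a median of -0.27. Pnpt1, which encodes an RNA-degrading enzyme of mitochondria and is known as interferon-inducible, rose by 0.33 (SE 0.03).

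**Figure D5:**
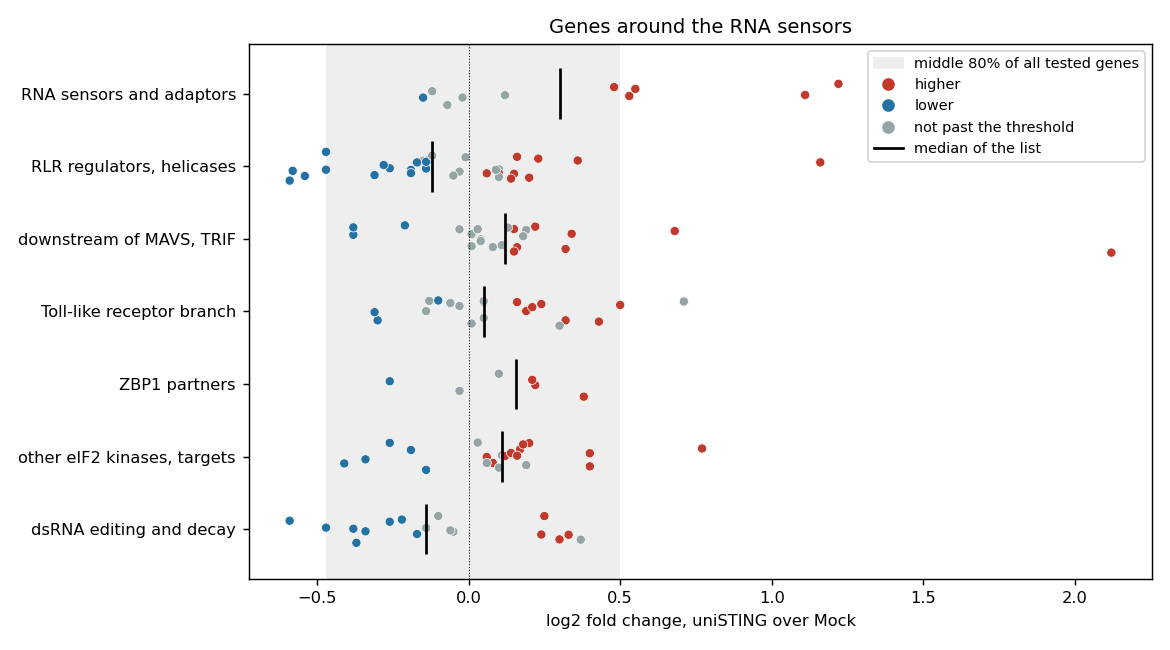
Log2 fold changes, uniSTING over Mock (horizontal axis), of the tested genes in the group of 10 and in 6 lists of genes around it, 1 point per gene coloured by its call, with a line at each median. The grey band holds the middle 80% of all tested genes, from -0.47 to 0.50, and the 5 sensors that rose lie at its upper edge or beyond it.

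The libraries held 18843543 and 25071840 counts in uniSTING and 17502694 and 22039546 in Mock, and the 10 genes had 22 to 1563 counts per library. For genes of 50 counts or more, libraries of a group had a variance between them that was 1.51 times counting noise in uniSTING and 1.47 times in Mock. Between uniSTING and Mock the same measure was 14.5 in preparation 1 and 17.1 in preparation 2. The libraries of a group were kept as separate libraries, but their spread does not show whether they came from separate cultures. Mammary epithelial markers were abundant, with 4898 to 5068 CPM summed over 8 genes in each library. Of these 8 genes 5 rose and 2 fell, beside 24.9% and 25.4% of all tested genes. The keratin gene Krt19 rose the most, at 129 and 134 CPM in uniSTING and 67 and 64.9 CPM in Mock (log2 fold change 1.00, adjusted p = 3.91e-09, edgeR). Of the 8 leukocyte and macrophage markers, 3 passed the filter on low counts (Cd68, Lyz2 and Csf1r), Cd68 alone passed the test, and Itgam had no count. Their summed level was 28.6 and 11.6 CPM in uniSTING and 18.9 and 7.42 CPM in Mock. Fibroblast markers summed to 14.3 and 9.88 CPM in uniSTING and 11 and 8.05 CPM in Mock, and endothelial markers to 0.226 to 1.87 CPM in a library. Of 3 fibroblast markers tested, Pdgfra rose (log2 fold change 0.37, adjusted p = 0.0243, edgeR) and 2 did not pass. Col3a1 and Dcn had counts only in the preparation 1 libraries, as Ptprc and Lyz2 did, while Col1a1 had counts in all 4 libraries.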

How the data were processed

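RNA-seq counts of 4 libraries of 4T1 cells were used. The deposited values are raw counts per gene: per the file headers, the authors ran featureCounts 2.0.1 in paired-end mode over exons grouped by gene, without a strand option, on uniquely mapped reads and the Ensembl 103 annotation of GRCm39. Reads were aligned with HISAT2 per the submitters' processing notes, its version not given in the sources used here. Without strand, reads of overlapping genes cannot be told apart. Uniquely mapped reads leave out sequence shared by near-identical copies.

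Groups came from the sample titles. Symbols came from identifier tables. Testing used edgeR 4.0.16 (R 4.3.3; TMM, default filter with a minimum count of 10 and total of 15, glmQLFit and glmQLFTest, Benjamini-Hochberg adjustment at 0.05). The SE was derived from the F statistic and is approximate, and the 95% intervals follow from it. CPM used TMM-scaled library sizes, log2 values of 1 preparation a prior count of 2, and the likeness measure a pseudocount of 0.1 CPM. Low counts got an exact binomial interval. The test was checked on simulated counts. Alternatives were DESeq2 1.42.0, its size factors in edgeR, limma-voom (limma 3.58.1), other filters, the preparation number as a block, lowess removal of the length trend (span 0.3), and leaving out each library. Removal of length and GC trends was added after seeing the data, with GC from transcripts of another build (GRCm38).

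The 10 genes, the lists and the rule for named genes were chosen with earlier results of these data known. The rule names the 10 genes, the 4 genes with the smallest p of each list, a fixed panel of pathway genes, and the 3 genes most like each of the 10. Marker genes, genes that share exons with the 10 genes, Eif2ak1, Eif2ak3 and Eif2ak4 were named outside it. Protein sequences were not used here.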

Additional observations from a re-analysis of the deposited data

How the results depend on the processing

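The 5 genes that rose among the RNA sensors passed upward under all 12 alternatives, and no other of the 10 genes rose under any of them. The count that fell was 1, and it was 0 with DESeq2, 0 with the length trend removed and 0 with length and GC trends removed, and from 0 to 1 when leaving out 1 library, always through Adar, which was 0.03 on the log2 scale with length and GC trends removed. When leaving out 1 library, Ticam1 ran from -0.19 to 0.17 and Myd88 from -0.15 to 0.02 on the log2 scale, each above 0 only without Mock replicate 2, against -0.02 and -0.07 with all libraries, and neither passed. Over all genes, the alternatives gave 2159 to 3377 genes higher and 2358 to 3403 lower in uniSTING, against 3225 and 3290. With the preparation number as a replicate block, 5 of the 10 genes rose and 1 fell, and 3374 genes rose and 3403 fell over the whole table. Deviations of same-numbered libraries from their group means correlated at 0.63 over genes, but the labels tie no number to a shared culture and there are 2 pairs, so the number was not taken as a pairing. List counts that moved by over 1.5 times, beyond those given with the lists, were 1 gene lower downstream of MAVS and TRIF with DESeq2 or with length and GC trends removed (against 3), no ZBP1 partner lower without Mock replicate 1 or with either trend removal (against 1), 5 higher among the other eIF2 alpha kinases, their targets and regulators with length and GC trends removed (against 11) and 3 lower with either trend removal (against 5), and 5 lower for RNA editing and decay with length and GC trends removed (against 8). The cause was not tested. GC correction with sequence of GRCm39 was not run. Depth limits Zbp1, Dhx58 and Ticam1 the most, and each group has 2 libraries.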

Other observations

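Cytosolic DNA sensing genes moved in both directions. Of 7 listed genes, 5 were tested, of which 1 rose and 2 fell, and the median was 0.09 on the log2 scale. Over all tested genes 24.9% rose and 25.4% fell. Ifi204, an interferon-inducible DNA-binding protein gene, rose by 0.33 (SE 0.05), at 70.1 and 66.0 CPM in uniSTING and 54.8 and 53.4 CPM in Mock. Samhd1, a nucleotide-degrading restriction factor gene, fell by 0.32 (SE 0.04). Cgas, the cytosolic DNA sensor gene, had 18.6 and 19.6 CPM in uniSTING and 21.4 and 22.6 CPM in Mock (adjusted p = 0.0367, edgeR), and in 6 of the 12 alternatives 1 gene of the list fell, while in 4 of them 2 rose. Sting1, the gene whose product uniSTING mimics, did not pass, at 21.8 and 20.0 CPM in uniSTING and 19.7 and 19.5 CPM in Mock. Aim2, named after its values were seen, had 5 and 7 counts in uniSTING and none in Mock. This is 3.64-fold higher when Mock is set to 3 counts over its libraries, a ratio that leaves out the counting error of the uniSTING counts.

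Over all tested genes with a promoter window, 25.4% rose in uniSTING, and 36.5% of the 342 that held the ISRE core rose. For the gamma-activated site, searched as TTC and GAA separated by any 3 bases, 23.6% of 754 genes rose. Among the RNA sensor genes that site was found in windows of Eif2ak2, Adar and Myd88, and in Myd88 it overlaps the ISRE core. These shares were not tested.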
